A study of Drosophila melanogaster with 4 samples.

Results

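The comparison described here is that between female fruit flies (Drosophila melanogaster) mated to wild-type males and females mated to DTA-E males, 2 groups of mated females that differ in what the male transferred. All females came from an inbred Canton S stock, were reared at 25 °C on a 12 h light and 12 h dark cycle, and were 3 to 4 days old. The wild-type mates were Canton S males, which pass on sperm and accessory gland proteins (Acps). The DTA-E mates came from a transgenic stock in a Canton S background. They make no sperm, and no Acps from the accessory gland main cells, which form 96% of that gland's secretory cells. The promoter that drives the transgene is not named in the labels, and the labels do not say what the remaining secretory cells or other male glands pass on. Females mated to spermless males (sons of tudor, from Canton S males and bw sp tud1 females), which pass on Acps without sperm, and virgin females are shown beside both groups as reference levels. Mated females were frozen 1 to 3 h after mating, and total RNA of whole flies was hybridised to Affymetrix Drosophila GeneChips. Each group was 1 pool of 50 flies divided for 2 RNA extractions and measured on 4 chips, and the deposited table holds 1 value column for each of the 4 groups. No replicate values could therefore be used, no test was possible, and every difference below is that between 2 columns.

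A probe set was taken into the comparison when the highest of its 4 columns reached the median of all values (-0.18). This kept 7345 of 13965 probe sets, of which 6534 carried exactly 1 gene symbol and stood for 6201 genes, out of 10844 genes with such a probe set on the array. The other 811 kept probe sets carried several symbols or none and are called unnamed. The probe set of Kdm4A was the last inside that limit, at -0.178, and the first outside it also stood at -0.178. Levels are given on a log2 scale centred within each column, where 0 is the median kept probe set, and a difference is the level after wild-type males minus the level after DTA-E males. The base of the deposited log scale is not stated. It was read as log2, so that a difference of 1 is 2-fold; were the base e, it would be 2.72-fold.

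Seminal fluid of Drosophila acts on the mated female apart from fertilisation. Acps made by the main cells, among them the sex peptide, raise egg laying, lower the female's readiness to mate again and alter feeding, and sex peptide bound to sperm lengthens its own action. Mating and seminal proteins are also known to act on the female's innate immune genes, whose peptides are induced through the Toll and Imd pathways, chiefly in the fat body. Since DTA-E mates lack sperm and main-cell Acps together, the comparison asks for the joint effect of both.

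The columns were nearly alike. Their Pearson correlation across the 6201 genes was 0.990, where genes are not independent replicates, and 99.5% of them were within 1.5-fold. The difference had a median of -0.004 and an SD of 0.121 over all genes, and its middle 95% ran from -0.24 to 0.16. Where several probe sets measured one gene, as for 294 genes, their differences had an SD of 0.0955, which measures disagreement between probes and not between pools of flies. Differences depended weakly on level: their median was 0.04 in the 1551 genes with the lowest levels and -0.06 in the 1550 genes with the highest, and 34.9% and 72.5% of these genes were lower after wild-type males. The 9 hybridisation control probe sets were also higher in the wild-type column, in 9 of 9 cases, by 0.21 on average in the deposited values. Their part in small shifts of gene lists was not tested. The gap between 3' and 5' control probe sets of actin, a sign of RNA integrity, was 2.26 in the DTA-E column and 1.95 to 2.02 in the other 3 columns. For eIF-4a it was 1.97 against 1.70 to 1.80, and for GAPDH 1.97 against 1.79 to 1.93. The part of these larger gaps of the DTA-E column in the differences below was not tested.

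At the 2-fold threshold, 2 named genes were higher after wild-type males (0.0323% of 6201) and 3 were lower (0.0484%). At 1.5-fold, 8 were higher (0.129%) and 24 lower (0.387%). Of the 8 higher genes, 6 belonged to the immune lists. Of the 24 lower genes, 11 belonged to the lists of digestive enzymes, 3 to the sarcomere list and 2 to the respiratory chain list, and 7 had only an annotation number. In the reading over all 7345 kept probe sets, unnamed ones included, 20 were at least 1.5-fold higher (0.272%) and 24 lower (0.327%), and 10 were at least 2-fold higher (0.136%) and 3 lower (0.0408%). On any difference, however small, 48.1% of the named genes were higher and 51.9% lower, which is the background for the counts of list members given below. Nearest the 2-fold threshold, DptB (1.46) lay inside and BomS5 (0.99) outside on the higher side, and Act88F (-1.02) lay inside and Mal-A1 (-0.98) outside on the lower side.

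**Figure D1:**
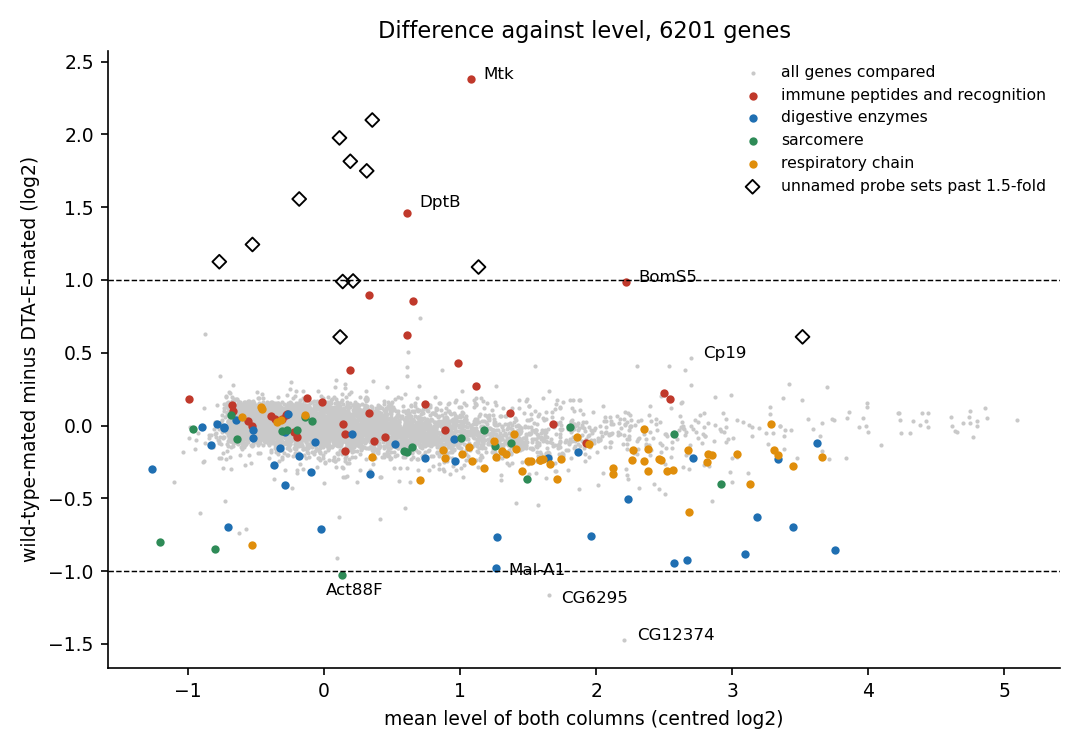
Difference between the wild-type-mated and DTA-E-mated columns (log2) against the mean level of both columns (centred log2), with 1 grey point per gene for 6201 genes, colours for 4 groups of lists and diamonds for the 12 unnamed probe sets at least 1.5-fold apart. Dashed lines mark 2-fold; Mtk is highest at 2.38, CG12374 lowest at -1.47, and all 12 diamonds lie on the higher side.

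Immune peptide genes led the higher side among named genes. Mtk encodes metchnikowin, an antimicrobial peptide secreted after infection. Its level was 1.31 in virgin, -0.11 in DTA-E-mated, 1.36 in spermless-mated and 2.27 in wild-type-mated females. The wild-type column was thus the highest and the DTA-E column the lowest of the 4, and they differed by 2.38, or 5.21-fold. DptB, which encodes a diptericin of the Imd pathway, stood at 0.55, -0.12, 0.83 and 1.34 in the same order, a difference of 1.46 or 2.75-fold. For both genes the virgin level lay between the DTA-E and the wild-type level: Mtk was lower after DTA-E males than in virgins by 1.42 and higher after wild-type males by 0.96. In whole flies, fewer cells of a type and less RNA per cell cannot be told apart, here and in all results that follow.

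The other measured antimicrobial peptide genes differed by less than 1.5-fold. Drs, encoding the antifungal drosomycin, was at 2.37, 2.38, 2.43 and 2.61 in virgin, DTA-E, spermless and wild-type columns, a difference of 0.23. Def, a defensin gene, differed by 0.163, and Drsl5, of the drosomycin family, by -0.17. Drs and Def lay above the middle 95% of all genes, whose upper end was 0.157, and Drsl5 lay within it. Of the 5 measured genes of the list 4 were higher. Their median was 0.23, and 0.15 when low probe sets were not filtered out. A further 13 of the 21 listed genes, attacins and cecropins among them, had no probe set of their own name and are not analysed here.

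Bomanins are short secreted peptides induced through the Toll pathway. All 9 measured genes in the list of bomanins and other Toll-induced peptides were higher after wild-type males, 3 of them at least 1.5-fold, with a median of 0.38 against -0.004 over all genes. BomS5 was at 2.27 in virgin, 1.73 in DTA-E-mated, 2.82 in spermless-mated and 2.72 in wild-type-mated females, a difference of 0.99. BomBc3 was at 0.77, 0.23, 1.08 and 1.08 in the same order, differing by 0.85. For these genes the spermless and wild-type columns lay close together, and both were above the DTA-E column. BomS2 followed with 0.33, 0.30, 0.92 and 0.92, a difference of 0.62, and BomBc2, BomT3 and BomT2 differed by 0.43, 0.38 and 0.27. The DTA-E column was the lowest of the 4 for 8 of the 9 genes (88.9%), as it was for 20.8% of all genes. Bbd, or bombardier, which is needed for short bomanins to reach the haemolymph, stood at 0.63, 0.34, 1.14 and 1.07, a difference of 0.74.

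Genes that sense microbes or relay the signal differed less than the peptides. PGRP-SB1, a peptidoglycan recognition protein gene that infection induces, was the exception, at 0.34, -0.12, 0.41 and 0.78 in virgin, DTA-E, spermless and wild-type columns. Its difference of 0.90 is 1.86-fold. Of the 22 measured genes for recognition and signalling, 14 were higher and the median was 0.04, or 0.007 without the filter. SPE, the protease that activates the Toll ligand Spätzle, differed by 0.19, nec, a serpin that restrains the Toll cascade, by 0.15, and cact, the inhibitor of the Toll transcription factors, by -0.12. Tsf1, which encodes the iron carrier transferrin, was at 2.06, 1.34, 1.70 and 1.75, a difference of 0.41.

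Most probe sets that were 2-fold higher had no gene in the array's annotation. There were 8 such among the 811 unnamed probe sets (0.986%), against 2 among the 6534 named probe sets (0.0306%). Probe set 143609_at was at 0.30 in virgin, -0.70 in DTA-E-mated, 0.27 in spermless-mated and 1.40 in wild-type-mated females, a difference of 2.10 or 4.28-fold. Probe set 143443_at was at 0.06, -0.87, 0.34 and 1.10, a difference of 1.98. Probe set 141374_at was at 0.00, -0.71, 0.89 and 1.10, a difference of 1.82. In these 3, as in Mtk and DptB, the virgin and spermless columns lay between the DTA-E and wild-type columns. Probe sets 147220_s_at, 147150_at, 143097_f_at, 143096_f_at and 147431_at differed by 1.75, 1.56, 1.24, 1.13 and 1.09. In all 8 the DTA-E column was the lowest of the 4 and the wild-type column the highest. This follows in part from choosing them by the difference between these columns. Over all named genes the DTA-E column was the lowest for 20.8% and the wild-type column the highest for 29.2%. No unnamed probe set was 1.5-fold lower, and the lowest differed by -0.43. The genes that the unnamed probe sets measure are not given in the annotation used here. Nothing can be said of their function, or of how many genes the 8 probe sets stand for.

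**Figure D2:**
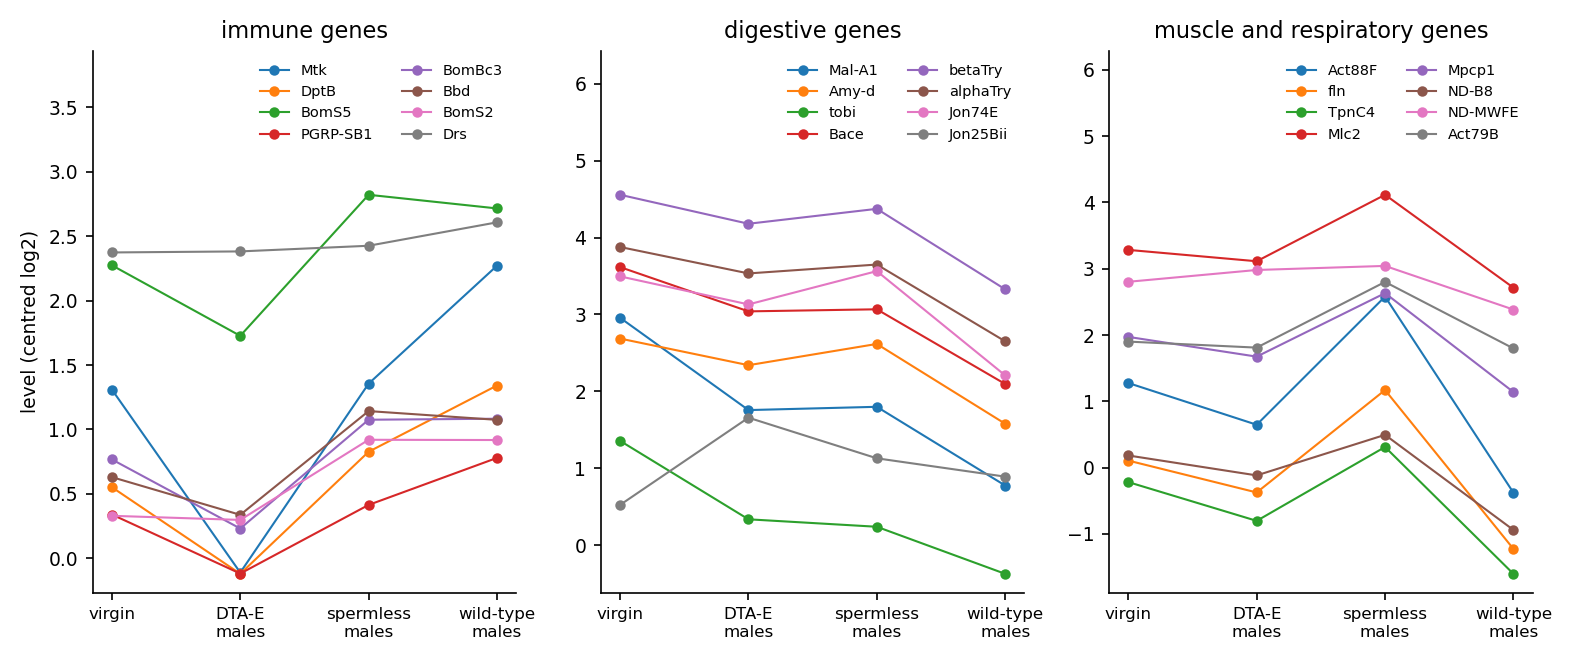
Levels (centred log2) of 24 genes in the 4 columns, 1 point per column and 1 line per gene, with immune genes on the left, digestive genes in the middle and muscle and respiratory genes on the right. The DTA-E column is the low point for Mtk (-0.11) and BomS5 (1.73), whereas the wild-type column is the low point for Mal-A1 (0.77) and Act88F (-0.38).

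Genes of carbohydrate digestion were lower after wild-type males. Of 12 measured genes 12 were lower, 4 of them at least 1.5-fold, with a median of -0.25. That median ranged from -0.65 under a filter at the 75th percentile, which leaves 7 genes, to -0.20 with the trend over level removed. Mal-A1, a gut maltase gene, stood at 2.96 in virgin, 1.76 in DTA-E-mated, 1.80 in spermless-mated and 0.77 in wild-type-mated females. It was lower after wild-type than after DTA-E males by 0.98 and was already lower after DTA-E males than in virgins. Amy-d, an amylase gene, was at 2.69, 2.34, 2.62 and 1.58 in that order, a difference of -0.76. The alpha-glucosidase gene tobi was at 1.36, 0.34, 0.24 and -0.37, differing by -0.71, and the maltase gene Mal-A6 at 0.59, -0.36, -0.09 and -1.05, differing by -0.69. The wild-type column was the lowest of the 4 for all 12 genes, as it was for 26.6% of all genes. The list's median against virgin females was -0.50 for the DTA-E column and -0.90 for the wild-type column, 2 differences that share the virgin column. Amyrel, Mal-A2 and Mal-A8, named here after their values were seen, passed the filter only through the virgin column. A level below that of virgins was therefore fixed for them, which enters both medians and, in part, the count of lowest wild-type columns.

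Gut protease genes were lower as well. In the list of trypsins and other digestive proteases 12 of 14 were lower, and the median was -0.18, or -0.28 under a filter at the 75th percentile. Median levels of that list lay near the median kept probe set, while the genes given next stood well above it. Bace, an aspartic protease gene, stood at 3.62, 3.04, 3.07 and 2.10 in virgin, DTA-E, spermless and wild-type columns, a difference of -0.94. The trypsin genes alphaTry (3.88, 3.53, 3.65 and 2.65) and betaTry (4.56, 4.18, 4.37 and 3.33) differed by -0.88 and -0.85. In all of these the DTA-E and spermless columns lay near each other and the wild-type column lay below both. The trypsin gene epsilonTry was at 2.91, 2.49, 2.97 and 1.98, differing by -0.51. alphaTry and betaTry are closely related neighbours in one gene cluster, so that probes may not fully separate them.

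The Jonah genes, a family of chymotrypsin-like gut proteases, were lower in 13 of 14, and 4 of them at least 1.5-fold. Their median was -0.23. Jon74E was at 3.50 in virgin, 3.13 in DTA-E-mated, 3.56 in spermless-mated and 2.21 in wild-type-mated females, a difference of -0.92. Jon65Aiv and Jon65Aiii, whose wild-type columns were likewise the lowest, differed by -0.69 and -0.63. Jon25Bii had another order, with 0.52, 1.66, 1.13 and 0.89, so that its difference of -0.77 came with a DTA-E column above the 3 others and a wild-type column above the virgin one. Jon25Bi shared that high DTA-E column, at -0.32, 0.50, 0.15 and 0.17, and differed by -0.34. Lysozyme genes, which in Drosophila are mostly expressed in the gut, were lower in 4 of 6, and their median was -0.20, or -0.14 with the trend over level removed and -0.10 after quantile normalization. LysC, at 2.47, 1.86, 2.58 and 1.55, differed by -0.31, and LysB, LysD and LysE, near-identical neighbours whose probes may not separate them, by -0.22, -0.22 and -0.18.

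Among all genes the lowest differences belonged to those known by number only. CG12374 was at 2.90, 2.94, 3.06 and 1.47 in virgin, DTA-E, spermless and wild-type columns, a difference of -1.47 or 2.77-fold. CG6295 was at 2.04, 2.23, 2.37 and 1.07, a difference of -1.16 or 2.24-fold. For both, the wild-type column stood alone below 3 columns that lay close together. CG4363 followed the order of tobi, at 1.57, 0.55, 0.50 and -0.36, and differed by -0.91. The other 4 numbered genes at least 1.5-fold lower differed by -0.60 to -0.74.

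Flight muscle genes were lower after wild-type than after DTA-E males, but the spermless column departed from both by more. Act88F, the actin gene of the indirect flight muscle, was at 1.28 in virgin, 0.65 in DTA-E-mated, 2.58 in spermless-mated and -0.38 in wild-type-mated females. Its difference of -1.02 was made up of 1.93 from DTA-E to spermless and -2.96 from spermless to wild-type. The flightin gene fln, of the flight muscle thick filament, was at 0.10, -0.38, 1.17 and -1.23, differing by -0.85, and TpnC4, a flight muscle troponin C gene, at -0.22, -0.80, 0.31 and -1.60, differing by -0.80. Both lay below the median kept probe set in the DTA-E and wild-type columns. Of the 22 measured sarcomere genes 19 were lower, 3 at least 1.5-fold, and the median was -0.09, or -0.057 with the trend over level removed. The myosin light chain genes Mlc2 (3.28, 3.11, 4.12 and 2.71) and Mlc1 (1.74, 1.68, 2.65 and 1.31) differed by -0.40 and -0.37. Act79B, an actin gene of other muscles that was named after its values were seen, was at 1.90, 1.81, 2.80 and 1.80 and so differed by -0.01.

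Genes of energy supply were lower by small amounts over nearly the whole list. In the mitochondrial respiratory chain list 49 of 56 genes were lower, 2 of them at least 1.5-fold, with a median of -0.22, and the wild-type column was the lowest of the 4 for 48 genes (85.7%). ND-B8 and ND-MWFE, both of complex I, the NADH dehydrogenase, led the list. ND-B8 was at 0.18 in virgin, -0.12 in DTA-E-mated, 0.49 in spermless-mated and -0.94 in wild-type-mated females, a difference of -0.82, and ND-MWFE at 2.80, 2.98, 3.04 and 2.38, a difference of -0.60. The shift was alike in all complexes: the median was -0.23 in complex I (26 of 29 genes lower), -0.22 in complex II (3 of 3), -0.23 in complex III (5 of 5), -0.20 in complex IV (5 of 6) and -0.19 in the ATP synthase (10 of 13). Against virgin females the list's median was -0.03 in the DTA-E and -0.26 in the wild-type column. The median level of this list was high, at 1.83 in the DTA-E column, and the 1550 genes with the highest levels had a median of -0.06. With the trend over level removed, the list's median was -0.16. ATPsynGL, ATPsynbetaL, ATPsynepsilonL, ND-20L, ND-24L and ND-B14.5AL, named after their values were seen, were among the genes not lower. Their levels lay below the median kept probe set in both columns compared.

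**Figure D3:**
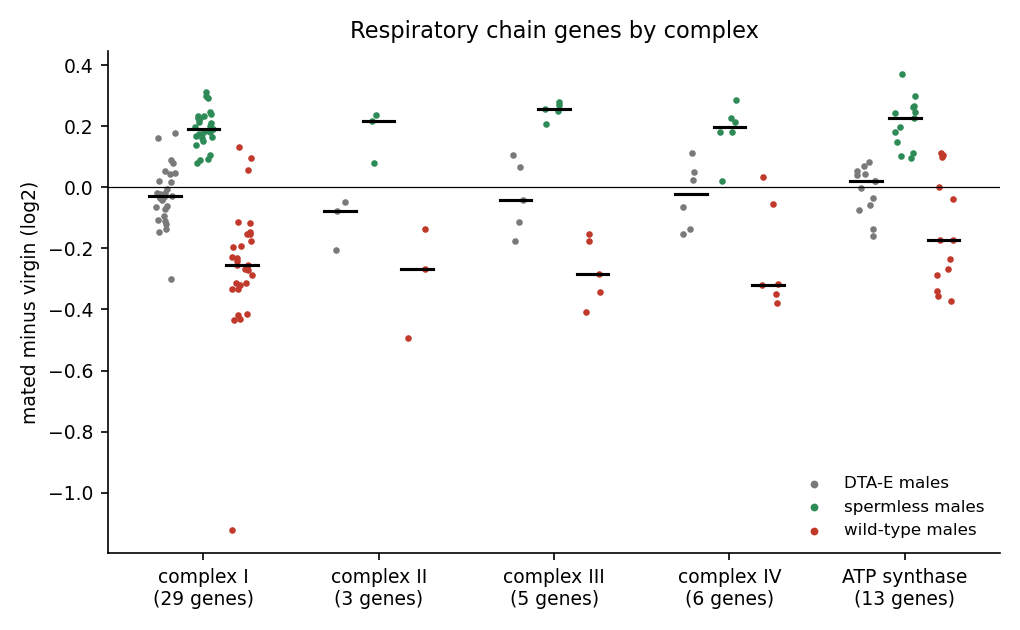
Difference from the virgin column (log2) for the measured genes of each respiratory chain complex, with 1 point per gene, a black bar at each median and colours for the males mated to; all differences share the virgin column. The medians after wild-type males lie below 0 and below those after DTA-E males in all 5 complexes, and those after spermless males lie above 0.

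Of the glycolysis and muscle energy genes 12 of 13 were lower, and the median was -0.18, or -0.12 with the trend over level removed. Mpcp1, a mitochondrial phosphate carrier gene, was at 1.97, 1.67, 2.63 and 1.14 in virgin, DTA-E, spermless and wild-type columns, differing by -0.53. The aldolase gene Ald1, at 3.46, 3.19, 3.62 and 2.80, differed by -0.39. Other lists of housekeeping genes had smaller medians, with 54 of 64 mitochondrial ribosomal protein genes lower (median -0.06) and 25 of 26 proteasome genes lower (median -0.09). The DTA-E column was the highest of the 4 for 40 (62.5%) and 17 (65.4%) of these genes, as it was for 26.9% of all genes. Cytosolic ribosomal protein genes had a median of 0.02 with 17 of 27 higher, and a median of -0.003 in columns as deposited. Once the trend over level was removed, the median was -0.04 for proteasome genes and -0.031 for mitochondrial ribosomal protein genes.

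Eggshell genes were mostly higher after wild-type males, by less than 1.5-fold. Chorion and vitelline membrane genes are expressed in the follicle cells of late egg chambers. Of the 16 measured genes 11 were higher, with a median of 0.15, and 5 were lower, the lowest by -0.06. The genes given next are those with the largest differences. The chorion gene Cp19 was at 2.36 in virgin, 2.46 in DTA-E-mated, 2.61 in spermless-mated and 2.93 in wild-type-mated females, a difference of 0.46. Cp7Fc, at 1.37, 0.67, 1.02 and 1.06, differed by 0.38, and here the wild-type level was nearer to that of virgins than the DTA-E level was. The eggshell gene yellow-g behaved in the same manner, at 0.77, 0.41, 0.73 and 0.81, with a difference of 0.40. Cp38, Cp16 and Cp36 differed by 0.29, 0.28 and 0.26.

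Other lists of the reproductive system had smaller medians, though osk, sra and Send2, given below, lay outside the middle 95% of all genes (-0.24 to 0.16). The yolk protein genes, defining markers of adult females, were at high and nearly equal levels in all columns: Yp1 was at 5.19, 5.07, 5.09 and 5.11, a difference of 0.04, and Yp2 and Yp3 differed by 0.06 and 0.09. Genes of oocyte patterning and the germline had a median of 0.01, which was -0.02 in columns as deposited, with 14 of 24 higher, led by osk, which organises the germ plasm, at 0.20. In the list of oocyte meiosis and egg activation, sra, a calcineurin regulator needed for egg activation, was at 1.21, 1.27, 1.16 and 0.99, a difference of -0.28. The spermathecal protease gene Send2 was at -1.36, -0.38, -0.34 and -0.13, so that all 3 mated columns were above the virgin one, and its difference was 0.25.

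Genes of male glands and testis differed by no more than the bulk of genes. On the array 24 genes of accessory gland and ejaculatory proteins had a probe set, and 23 of them fell below the filter, with deposited values of at most -0.19 in every column. Their differences ran from -0.04 to 0.12 with a median of 0.01 as deposited. The 1 gene kept, EbpIII, an ejaculatory bulb protein gene, was at 1.39, 1.47, 1.63 and 1.28, a difference of -0.19, and the virgin column lay within the range of the mated ones. Of the 36 probe sets for testis and spermatid genes 27 fell below the filter, with differences from -0.003 to 0.10 and a median of 0.04.

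**Figure D4:**
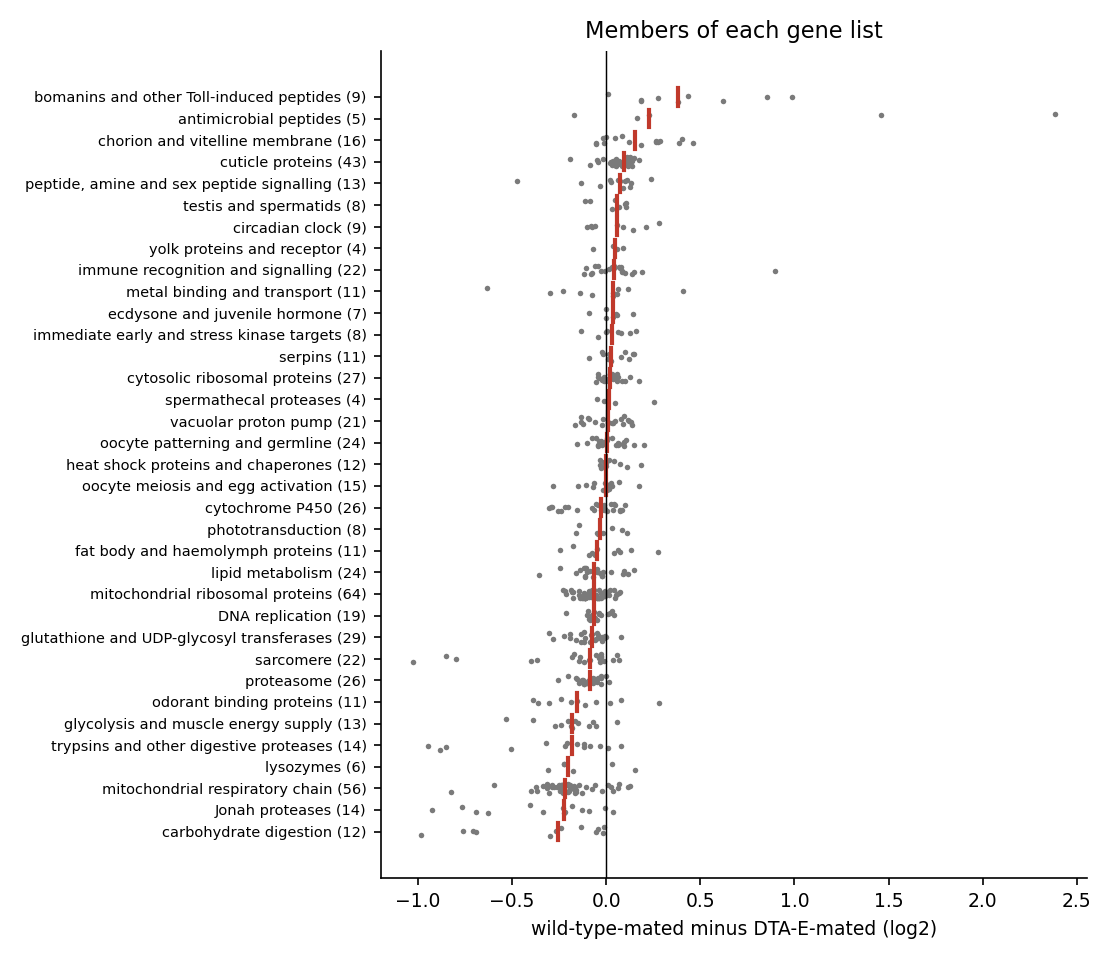
Difference between the wild-type-mated and DTA-E-mated columns (log2) for the members of 35 gene lists, with 1 grey point per gene, a red bar at each median and the number of measured genes in brackets. Bomanins lie highest (median 0.38) and carbohydrate digestion lowest (median -0.25), while most lists lie near 0.

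The remaining lists held single genes of interest. Metal binding genes had a median of 0.04, which was -0.063 under a stricter filter, but MtnC, a metallothionein gene, was at -0.12, 0.43, -0.08 and -0.20, a difference of -0.63 in which the DTA-E column was the one apart. MtnB and MtnA differed by -0.30 and -0.23. The lipid droplet gene Lsd-1, a perilipin, also had its highest level after DTA-E males, at 0.38, 1.20, 0.88 and 0.84, and differed by -0.36, in a lipid list with 19 of 24 genes lower and a median of -0.06, or -0.017 with the trend over level removed. Obp19d and Obp99c, odorant binding protein genes, differed by -0.39 and -0.36, while Obp19c differed by 0.28. Of that list 8 of 11 were lower, with a median of -0.15 that was 0.00014 without the filter. Glutathione and UDP-glycosyl transferase genes, which act in detoxification, were lower in 28 of 29, although their median was -0.07, or -0.037 under a filter at the 75th percentile, led by GstE3 (-0.31). Cytochrome P450 genes had a median of -0.03, or -0.049 in columns as deposited, with Cyp6d5 at -0.30. Of the cuticle protein genes 38 of 43 were higher, with a median of 0.10 that was 0.03 without the filter on low probe sets. The neuropeptide precursor gene Nplp3, at 2.65, 2.74, 3.25 and 2.27, differed by -0.47. In its list, of peptide, amine and sex peptide signalling, 10 of 13 genes were higher and the median was 0.07. Uhg1, a host gene of small nucleolar RNAs, was the only named gene at least 1.5-fold higher that lies outside the immune genes described above, at -1.10, -1.19, -1.44 and -0.56, a difference of 0.63 at levels below the median. Uhg1 passed the filter only through its wild-type column, so its place among the higher genes follows in part from the filter.

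The difference between wild-type and DTA-E columns is the sum of a step from DTA-E to spermless and a step from spermless to wild-type, which share the spermless column. For bomanins the list medians of these steps were 0.61 and -0.10, so that the first held the difference. The first median is the step of BomS4, a gene that passed the filter only through its spermless column and is named here for that reason. For Mtk they were 1.47 and 0.92, and for DptB 0.95 and 0.51, with both steps upward. For carbohydrate digestion the medians were 0.09 and -0.29, and for CG12374 the steps were 0.12 and -1.59, so that the second held the difference. For sarcomere genes (0.40 and -0.46) and the respiratory chain (0.25 and -0.47) the steps were opposed. The fat body gene fit was at 0.54 in virgin, 1.61 in DTA-E-mated, 0.79 in spermless-mated and 1.65 in wild-type-mated females, so that the end columns differed by 0.04 while the spermless column lay below both. CG3348 also had a spermless column below both ends, at 0.13, 1.13, 0.47 and 1.40, but its end columns differed by 0.27, past the range of the middle 95% of genes.

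**Figure D5:**
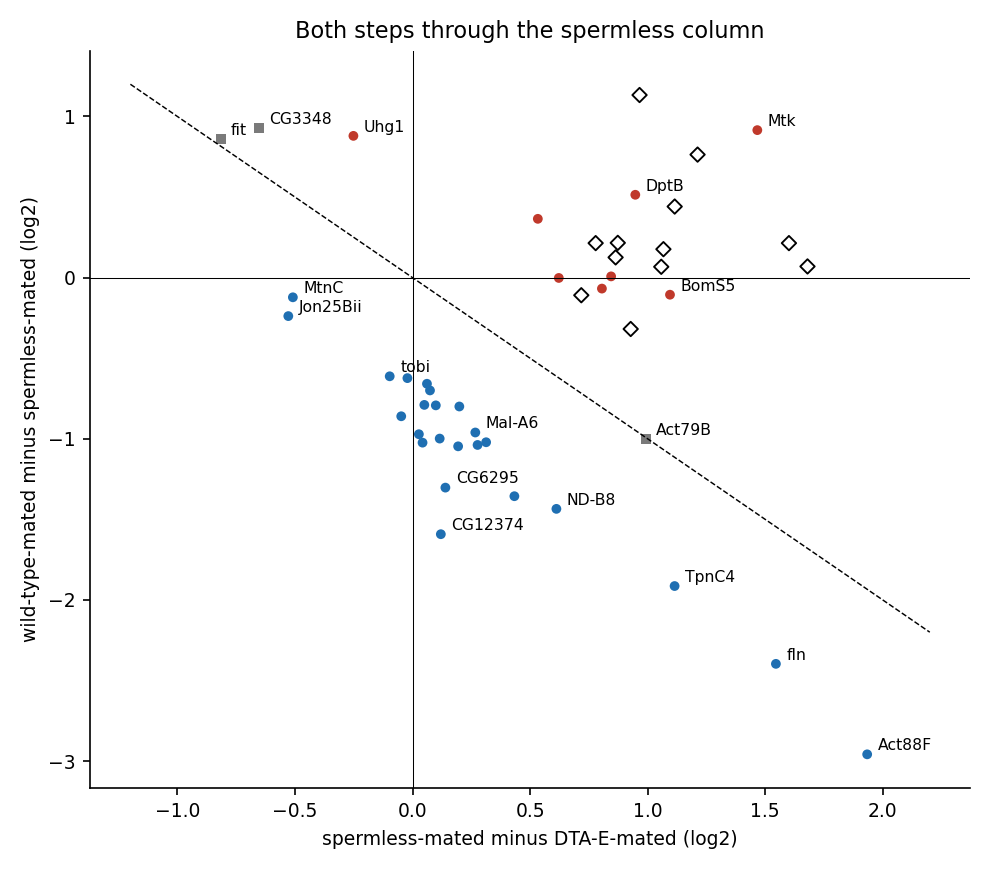
Step from the DTA-E to the spermless column (horizontal, log2) against the step from the spermless to the wild-type column (vertical, log2), which share the spermless column, for the 8 named genes at least 1.5-fold higher (red), the 24 lower (blue), 12 unnamed probe sets (diamonds) and fit, CG3348 and Act79B (grey squares). On the dashed line both steps cancel, as nearly for Act79B, and Act88F, at 1.93 and -2.96, lies below it.

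Genes past 1.5-fold were in part neighbours on the chromosomes. Within 3 protein-coding genes on either side in the RefSeq gene order, 2 of the 8 higher genes (25%) had another gene of the same set, BomS2 with BomS5, as against 0.274% of all genes with a gene of that set so close. Among the 24 lower genes 4 (16.7%) had one, Jon65Aiii with Jon65Aiv and alphaTry with betaTry, as against 1.08% of all genes. These pairs are related gene copies, and the part of shared probe sequence was not tested.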

How the data were processed

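The deposited table, made by the authors, holds 1 value per probe set and group on a log scale read as log2; how the 4 chips of a group were combined, and the software for image analysis and scaling, are not given in the sources used here. Deposited values ran from -1.98 to 5.67 with column medians of -0.19 to -0.17. Probe sets were named from the platform annotation (12443 with 1 symbol, 326 with several, 1196 with none), with symbols updated through a RefSeq table in which 12394 were found and 49 were not. The 44 control probe sets were used for quality values only. Probe sets whose highest column reached the median of all values were kept, each column was centred on the median of its kept probe sets, a relative shift of at most 0.05, and the mean was taken over probe sets of one gene.

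The members, the 36 gene lists (35 with at least 4 measured genes) and the thresholds were chosen with earlier results of these data known. The naming rule took the 20 highest and 20 lowest genes with a symbol, the 10 highest and 10 lowest of any name, the 6 members of each list with the largest differences, all members of lists with 8 or fewer, and the marker genes of sex and tissue; exceptions are marked in the text or described by family. With 1 column per group no test, p-value or interval was computed; the number of arrays limits the precision. The calculation was tested on simulated data. Alternatives were 7 other settings, thresholds of 1.5-fold and 3-fold, and, chosen after seeing the data, all kept probe sets and the respiratory chain by complex. Software was numpy 2.4.6, pandas 2.3.3, statsmodels 0.14.6 (lowess, fraction 0.3, 3 iterations) and matplotlib 3.10.9 under Python 3.11.15.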

Additional observations from a re-analysis of the deposited data

Results flagged for a closer look

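Unnamed probe sets, which no comparison of genes uses, held a signal on the higher side of the comparison. Of the 811 unnamed probe sets, 8 (0.986%) were at least 2-fold higher after wild-type than after DTA-E males. Probe set 143609_at was higher by 2.10, 143443_at by 1.98, 141374_at by 1.82, 147220_s_at by 1.75, 147150_at by 1.56, 143097_f_at by 1.24, 143096_f_at by 1.13 and 147431_at by 1.09. Their level in the DTA-E column was below that in virgin females in 8 of 8 cases. They were chosen for a low DTA-E against wild-type level, so this follows in part from the choice. The DTA-E column was the lowest of the 4 for 20.8% of all named genes. Probe set 143096_f_at passed the filter only through its spermless and wild-type columns. The genes behind these 8 probe sets are not named in the annotation used here.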

How the results depend on the processing

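No named gene at least 1.5-fold apart changed sign under the alternatives run. The medians of 11 lists did so in at least 1 setting, none of them larger than 0.15 in size, and so did 13 named genes, none larger than 0.10. Of 242 list medians under alternatives 236 moved by less than the SD between probe sets of a gene and 6 moved by more, as did 29 of 1509 differences of named genes. The 2 genes at least 2-fold higher were 8 at 1.5-fold and 1 at 3-fold, and 10 with all kept probe sets, a choice made after seeing the data. They were 3 after quantile normalization, under the filter at the 75th percentile and with the lowess trend removed, and BomS5 stood at 1.11 after quantile normalization. The 3 genes at least 2-fold lower were 24 at 1.5-fold and 0 at 3-fold, 4 in columns as deposited and without a filter, and 2 under the filter at the 75th percentile. The list medians that moved were those of bomanins (0.28 without a filter), carbohydrate digestion (-0.65 over the 7 genes left by the filter at the 75th percentile and -0.48 over the 8 left by a filter on the 2 columns compared), lysozymes (-0.10 after quantile normalization), odorant binding proteins (0.00014 without a filter, over 35 genes) and metal binding (-0.063 under the filter at the 75th percentile). The filters change which genes are in a list; the cause of the move of the lysozyme median was not tested. No paired analysis was possible because each group has 1 column.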
